A study of Homo sapiens with 12 samples.

Results

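Serum response factor and the actin cytoskeleton were followed in HEK293T, an established line grown from human embryonic kidney, through 3 transcripts, those of SRF (ENST00000265354), PFN1 (ENST00000225655) and MYH9 (ENST00000216181). They were taken from a list of 8 genes given with 10 Ensembl transcript identifiers, by looking each identifier up in the 12 count tables, which together list 18338 transcripts. The other 7 identifiers, for ACTB, ACTG1, VCL, CFL1 and FLNA, were in none of the tables, and these 5 genes are not analysed here under any other identifier. The 3 transcripts had counts in all 12 libraries. Gene names come with the list and were not checked against an annotation, since the tables give identifiers alone.

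All cells were wild type and carry GSK-A1 as their treatment label, a compound that blocks PI4KA, the lipid kinase that makes phosphatidylinositol 4-phosphate at the plasma membrane. They were sampled at 0, 60 and 360 min, and only the time label makes 0 min the untreated state. At each time, ribosome-protected fragments (RPF), which are the stretches of mRNA shielded from nuclease by a ribosome, and polyadenylated mRNA were each sequenced in 2 replicates. The labels do not say whether replicates came from separate cultures, so p-values measure the spread between these libraries, which may be technical. No marker of the cell line could be checked, because the name tables used here hold 0 of the 18338 identifiers.

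SRF is a transcription factor that binds a short A and T rich element known as the CArG box. With the cofactors of the MRTF family, which are held in the cytoplasm by monomeric actin, it drives genes of the actin cytoskeleton when actin polymerizes. With ternary complex factors it drives immediate early genes after growth signals. PFN1 encodes profilin 1, which binds monomeric actin and feeds it to growing filaments. MYH9 encodes the heavy chain of non-muscle myosin IIA, the motor that pulls on actin filaments.

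The sequence around each gene's annotated start was searched for the CArG box alone. The 3 genes were matched by symbol to RefSeq promoter windows on GRCh38.p14, which run from 250 bases before to 50 bases after the start. The lines give the last 100 bases before the start, 5′ to 3′ on the gene's own strand, with CArG boxes in capitals. They lie at chr6:43171169-43171268 on the plus strand for SRF, chr17:4948531-4948630 on the minus strand for PFN1 and chr22:36387968-36388067 on the minus strand for MYH9. 
SRF: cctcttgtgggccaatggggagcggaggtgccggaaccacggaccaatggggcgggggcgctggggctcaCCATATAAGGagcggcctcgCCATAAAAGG
PFN1: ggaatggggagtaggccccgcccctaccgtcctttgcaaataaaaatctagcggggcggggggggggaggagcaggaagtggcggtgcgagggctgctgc
MYH9: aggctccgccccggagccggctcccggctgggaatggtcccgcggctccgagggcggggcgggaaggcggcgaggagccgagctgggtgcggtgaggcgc

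The CArG box was searched on both strands in the form of 2 C, 6 letters that are each A or T, and 2 G. The SRF window held 2 boxes, CCATATAAGG at bases −30 to −21 and CCATAAAAGG at −10 to −1 from the start. The windows of PFN1 and MYH9 held 0, which says only that these letters are not in those 300 bases. Of 35116 such windows in the table, 454 (1.293%) held at least 1 box and 11 (0.03132%) held 2 or more. A match is a description of letters, and no binding was measured here. A second annotated start of SRF had 0 boxes in its window.

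The libraries held between 429026 and 1165740 counts. Levels are given as CPM, the count of a transcript as a share of its library's total brought to a common total, scaled within each assay by the trimmed mean of M-values (TMM). RPF 360 min replicate 2 stood apart from the other footprint libraries: its correlation with them, on log2 CPM over 8632 transcripts, was between 0.835 and 0.864, while the median correlation of each other RPF library was between 0.886 and 0.919. Results at 360 min are therefore also given without it where they move. The 2 footprint libraries of 360 min were the least alike RPF pair (r = 0.835). The most alike RPF pair came from different times, 0 min replicate 1 and 360 min replicate 1 (r = 0.944). In mRNA, 0 min replicate 2 and 360 min replicate 2 were the least alike pair (r = 0.756). The most alike mRNA pair also came from different times, 0 min replicate 1 and 60 min replicate 2 (r = 0.933). The closest libraries were thus not those of the same time.

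The SRF footprint level was lowest at 60 min, by a margin inside the error of the fit. It was 43.4 and 53.0 CPM at 0 min (48 and 49 counts in replicates 1 and 2), 31.8 and 40.9 CPM at 60 min (30 and 29 counts), and 48.1 and 48.9 CPM at 360 min (35 and 27 counts). With TMM scaling both 60 min libraries lay below both libraries of each other time, an order whose share over all transcripts was not computed. With library totals alone they overlapped, at 30.5 and 44.2 CPM at 60 min, 41.2 and 60.4 at 0 min and 42.4 and 49.4 at 360 min. Between 0 and 60 min the log2 change was −0.41 (SE 0.395, 95% interval −1.24 to 0.42), which did not pass (edgeR adjusted p = 0.999), and −0.24 without RPF 60 min replicate 1 or without RPF 0 min replicate 2. From 60 to 360 min it was 0.43 (SE 0.406, 95% interval −0.43 to 1.28), with an adjusted p-value of 0.828. At 360 min against 0 min it was 0.01 (SE 0.394), so the interval of that difference, −0.82 to 0.85, leaves room for a fold of 0.568 as well as of 1.80.

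SRF mRNA was not lowest at 60 min. Its level was 48.8 and 67.4 CPM at 0 min (39 and 48 counts), 81.4 and 55.0 CPM at 60 min (73 and 61 counts), and 93.0 and 69.4 CPM at 360 min (34 and 40 counts). The 60 min libraries lay on either side of the higher 0 min library, and both 360 min libraries were above both 0 min libraries. Against 0 min, the log2 change was 0.23 (SE 0.409) after 60 min and 0.46 (SE 0.420, 95% interval −0.48 to 1.41) after 360 min (edgeR adjusted p = 0.9999 and 0.733). Single libraries moved both: the first was −0.06 without mRNA 60 min replicate 1 and 0.52 without replicate 2, and the second ran from 0.27 without mRNA 360 min replicate 1 to 0.71 without mRNA 0 min replicate 2.

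The SRF footprint level was also set against its mRNA. The ratio of RPF CPM to mRNA CPM in replicates 1 and 2 was 0.890 and 0.786 at 0 min, 0.391 and 0.744 at 60 min, and 0.517 and 0.705 at 360 min. All 4 later ratios were under both 0 min ratios in this pairing, but not with the replicate numbers crossed. The pairing of an RPF with an mRNA library rests only on a common replicate number. The share of all transcripts with ratios in such an order was not computed, so the order is not read further. In the interaction test of assay and time, which asks whether footprints and mRNA changed by different amounts, the log2 change in this ratio was −0.63 (SE 0.545, 95% interval −1.80 to 0.53) at 60 min and −0.50 (SE 0.552, 95% interval −1.68 to 0.68) at 360 min. The edgeR adjusted p-values were 1.000 and 0.936, so neither difference passed. The 60 min value was −0.27 without mRNA 60 min replicate 1 and −0.94 without replicate 2, and the 360 min value ran from −0.24 without mRNA 360 min replicate 1 to −0.75 without replicate 2.

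PFN1, the actin monomer carrier, had footprint replicates that parted at 360 min. Its RPF level was 779 and 828 CPM at 0 min (861 and 766 counts), 623 and 688 CPM at 60 min (588 and 488 counts), and 978 and 444 CPM at 360 min (712 and 245 counts). With TMM scaling the 60 min libraries were both below the 0 min libraries, whereas with totals alone 60 min (598 and 744 CPM) and 0 min (739 and 943 CPM) overlapped. The 360 min replicates lay on either side of all others with TMM, 2.20-fold apart, a gap at the 76.1st percentile of all transcripts in that group. That gap was wider than counting error: in CPM of the unscaled library total, the exact 95% Clopper-Pearson interval was 800 to 928 in replicate 1 and 394 to 508 in replicate 2. Such intervals hold counting error alone, as PCR copies are not independent molecules.

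Between 0 and 60 min, PFN1 footprints had a log2 change of −0.29 (SE 0.540, 95% interval −1.43 to 0.85; edgeR adjusted p = 0.999). At 360 min against 0 min it was −0.17 (SE 0.540), with −0.88 left when RPF 360 min replicate 1 was omitted and 0.27 when replicate 2 was, so each replicate gave its own sign. At 360 min against 60 min it was 0.12 (SE 0.540), −0.59 and 0.56 without the same libraries in turn, and −0.03 with libraries scaled by their totals alone.

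PFN1 mRNA overlapped between the 3 times. Its level was 188 and 277 CPM at 0 min (150 and 197 counts), 212 and 178 CPM at 60 min (190 and 198 counts), and 189 and 267 CPM at 360 min (69 and 154 counts). No time stood apart from the others. Against 0 min, the log2 change was −0.25 (SE 0.423) after 60 min and −0.03 (SE 0.426, 95% interval −0.99 to 0.93) after 360 min. With each library left out in turn, these ran from −0.48 to 0.05 (both from a 0 min library) and from −0.26 to 0.27. The ratio of RPF to mRNA was 4.15 and 2.99 at 0 min, 2.94 and 3.86 at 60 min, and 5.18 and 1.66 at 360 min. That ratio differed from 0 min by −0.03 on the log2 scale (SE 0.655) at 60 min and by −0.18 (SE 0.655) at 360 min, the latter −0.87 without RPF 360 min replicate 1 and 0.28 without replicate 2.

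The mRNA of MYH9, the myosin heavy chain, had the largest fitted change of the 3 transcripts, at 360 min, which did not pass the test. Its mRNA level was 404 and 185 CPM at 0 min (323 and 132 counts), 310 and 198 CPM at 60 min (278 and 220 counts), and 566 and 414 CPM at 360 min (207 and 239 counts). With TMM scaling both 360 min libraries were above the 4 earlier ones, of which 0 min replicate 1 was nearest. The share of all transcripts in that order was not computed. With totals alone, 360 min replicate 2 (403 CPM) was below 0 min replicate 1 (424 CPM), while both 360 min libraries were still above both 60 min libraries. The 0 min replicates were 2.18-fold apart, a gap at the 81.3rd percentile of all transcripts and beyond counting error, with exact 95% intervals of 379 to 473 and 153 to 217 CPM of the library total.

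The log2 change of MYH9 mRNA was 0.94 (SE 0.512, 95% interval −0.22 to 2.09) at 360 min against 60 min, which did not pass (edgeR adjusted p = 0.568, from an unadjusted value of 0.0993). At 360 min against 0 min it was 0.72 (SE 0.510, 95% interval −0.43 to 1.88), with an adjusted p-value of 0.668. The size of that second change was set by the 0 min replicates: it was 1.43 without mRNA 0 min replicate 1, with an edgeR adjusted p = 0.499 from an unadjusted value of 0.0442, and 0.27 without replicate 2. At 60 min against 0 min the log2 change was −0.21 (SE 0.507), 0.48 without mRNA 0 min replicate 1 and 0.10 without mRNA 60 min replicate 2.

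MYH9 footprints stood in the same order of times (60 min lowest, 360 min highest). The RPF level was 127 and 175 CPM at 0 min (140 and 162 counts), 131 and 133 CPM at 60 min (124 and 94 counts), and 181 and 188 CPM at 360 min (132 and 104 counts). With TMM scaling both 360 min libraries were above the 4 earlier ones, and the 60 min pair lay between the 0 min replicates. How many of all transcripts had both 360 min libraries on top was not computed. With totals alone, 360 min (160 and 190 CPM) overlapped 0 min (120 and 199 CPM) and was above 60 min (126 and 143 CPM). The fitted log2 difference was 0.49 (SE 0.376, 95% interval −0.30 to 1.28) at 360 min against 60 min and 0.30 (SE 0.372, 95% interval −0.49 to 1.08) at 360 min against 0 min (edgeR adjusted p = 0.783 and 1.000). The ratio of RPF to mRNA was 0.313 and 0.945 at 0 min, 0.424 and 0.669 at 60 min, and 0.320 and 0.454 at 360 min. The ratio at 360 min differed from that at 0 min by −0.48 on the log2 scale (SE 0.629, 95% interval −1.83 to 0.86), by −1.14 without mRNA 0 min replicate 1 and by 0.0031 without replicate 2.

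**Figure D1:**
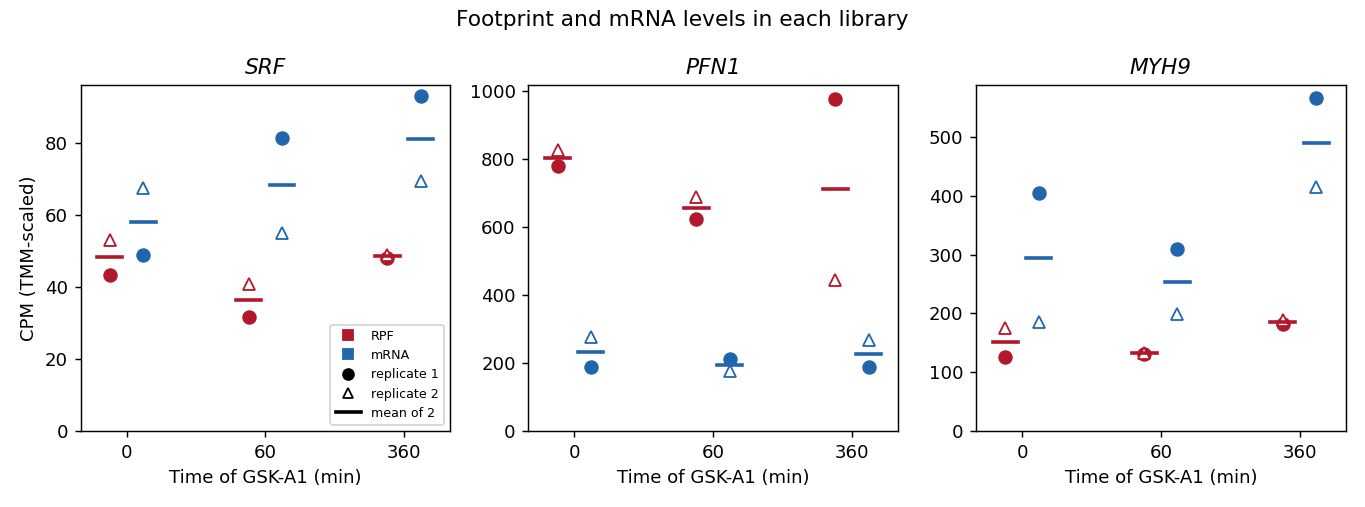
TMM-scaled CPM of SRF, PFN1 and MYH9 (one panel each, y axis from 0) against time of GSK-A1 in minutes, with RPF in red, mRNA in blue, replicate 1 as filled circles, replicate 2 as open triangles and the mean of 2 as a bar. The SRF footprint level is lowest at 60 min (31.8 and 40.9 CPM), the PFN1 footprint replicates part at 360 min (978 and 444 CPM), and MYH9 mRNA is highest at 360 min (566 and 414 CPM).

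In edgeR's quasi-likelihood test, 0 of the 3 transcripts had an adjusted p-value under 0.05, across 9 comparisons. The background was the same: 0% of 9653 transcripts in RPF, 0% of 9693 in mRNA and 0% of 8632 for the ratio of RPF to mRNA were called at each of the 3 pairs of times. At an unadjusted p-value under 0.05, 0 of the 3 were found in any comparison. The share of all transcripts under it in RPF was 2.31% between 0 and 60 min, 3.91% between 0 and 360 min and 7.8% between 60 and 360 min. In the same order it was 1.37%, 8.92% and 10.3% in mRNA and 1.75%, 5.66% and 4.69% for the ratio. The DESeq2 Wald test called 0 of the 3 as well. It gave SRF no adjusted p-value in mRNA at 360 min against 0 min or for the ratio at 360 min against 60 min, so SRF could not be called there. Over all transcripts DESeq2 called between 0 and 66 per comparison, the most in mRNA at 360 min against 60 min. The comparisons of 60 min and of 360 min with 0 min share the 0 min libraries. For 1 value in 2 against 2 libraries, a two-sided exact permutation test cannot give a p-value under 0.333, and none is reported for single transcripts.

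As a group, the 3 transcripts had a median log2 change in footprints of −0.29 at 60 min against 0 min, where the median of all transcripts was −0.0097. It was 0.43 at 360 min against 60 min, where the median of all was 0.04. With TMM scaling, the libraries at 60 min were apart from those at 0 min, without overlap, for 2 of 3 transcripts (SRF and PFN1, both lower), which was the case for 31.3% of all transcripts tested. The same held for 2 of 3 at 360 min against 60 min (SRF and MYH9, both higher; 35.6% of all) and for 1 of 3 at 360 min against 0 min (MYH9, higher; 27.3% of all). With library totals alone these counts were 0 of 3, 1 of 3 (MYH9) and 0 of 3, against 30.0%, 35.4% and 28.1% of all. Counts over 3 transcripts are too small to be read beyond these shares.

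In mRNA the median log2 change of the 3 was −0.21 at 60 min and 0.46 at 360 min, each against 0 min. Over all transcripts the medians were −0.02 (quartiles −0.32 and 0.26) and −0.03 (quartiles −0.55 and 0.44). At 360 min against 60 min the median of the 3 was 0.24, against −0.04 over all (quartiles −0.52 and 0.44). With TMM scaling, the replicates overlapped for all 3 at 60 min against 0 min, where 25.6% of all transcripts did not overlap. At 360 min against 0 min they did not overlap for SRF and MYH9, both higher (38.8% of all), and at 360 min against 60 min for MYH9 alone, higher (40.2% of all). With totals alone, 1 of 3 did not overlap at 360 min against 0 min (SRF, higher; 38.8% of all). At 360 min against 60 min it was also 1 of 3 (MYH9, higher; 42.3% of all). The median log2 change in the ratio of RPF to mRNA was −0.03 at 60 min and −0.48 at 360 min, each against 0 min. Over all transcripts the medians were 0.02 (quartiles −0.36 and 0.42) and 0.01 (quartiles −0.47 and 0.57). At 360 min against 60 min the median of the 3 was −0.145, against 0.03 over all (quartiles −0.45 and 0.58).

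**Figure D2:**
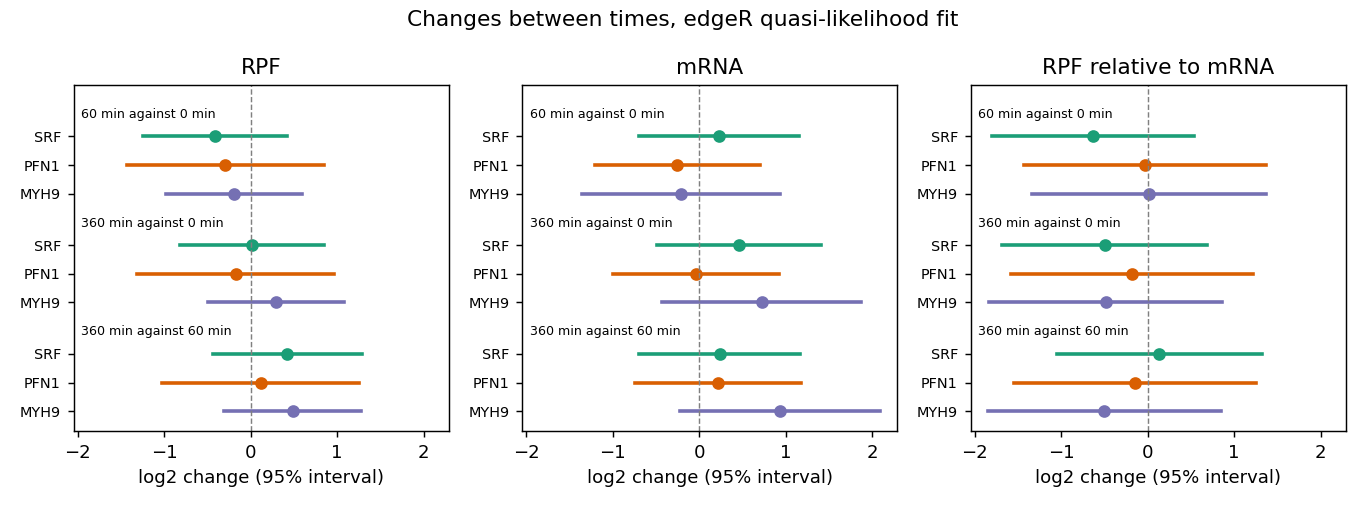
Log2 change (x axis) of SRF, PFN1 and MYH9 between times in RPF, in mRNA and in RPF relative to mRNA, from edgeR fits to all libraries of the assay or, for the ratio, to all 12. Points are estimates and lines 95% intervals; every interval includes 0, and the change farthest from 0 is that of MYH9 mRNA at 360 min against 60 min, 0.94.

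PFN1 had more footprints relative to mRNA than SRF and MYH9, whose order changed between replicate pairs. The order PFN1, SRF, MYH9 held in 4 of 6 replicate pairs. A ratio within 1 transcript does not depend on its length, but it does depend on whether the same region was counted in both assays, which the sources used here do not give. Among 8632 transcripts, the mean log2 ratio of PFN1 was at the 96.6th percentile at 0 min, the 94.9th at 60 min and the 89.8th at 360 min. The PFN1 value at 360 min averages replicates with ratios of 5.18 and 1.66, and no percentile was computed without RPF 360 min replicate 2. SRF was at the 34.4th, 14.8th and 18.3rd percentile. MYH9 was at the 15.5th, 14.0th and 6.02nd percentile. At 0 min the mean log2 ratio (± SD, n = 2 libraries per assay) was 1.80 ± 0.396 for PFN1, −0.25 ± 0.370 for SRF and −0.87 ± 0.851 for MYH9. The median of all transcripts was 0.13. This SD is the square root of the summed variances of log2 CPM in RPF and in mRNA. It does not pair libraries, so it is not the SD of the ratios by replicate number. At 60 min SRF (−0.85 ± 0.454) and MYH9 (−0.90 ± 0.452) did not differ beyond their spread, and at 360 min the values were 1.54 ± 0.876 for PFN1, −0.71 ± 0.290 for SRF and −1.38 ± 0.318 for MYH9.

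**Figure D3:**
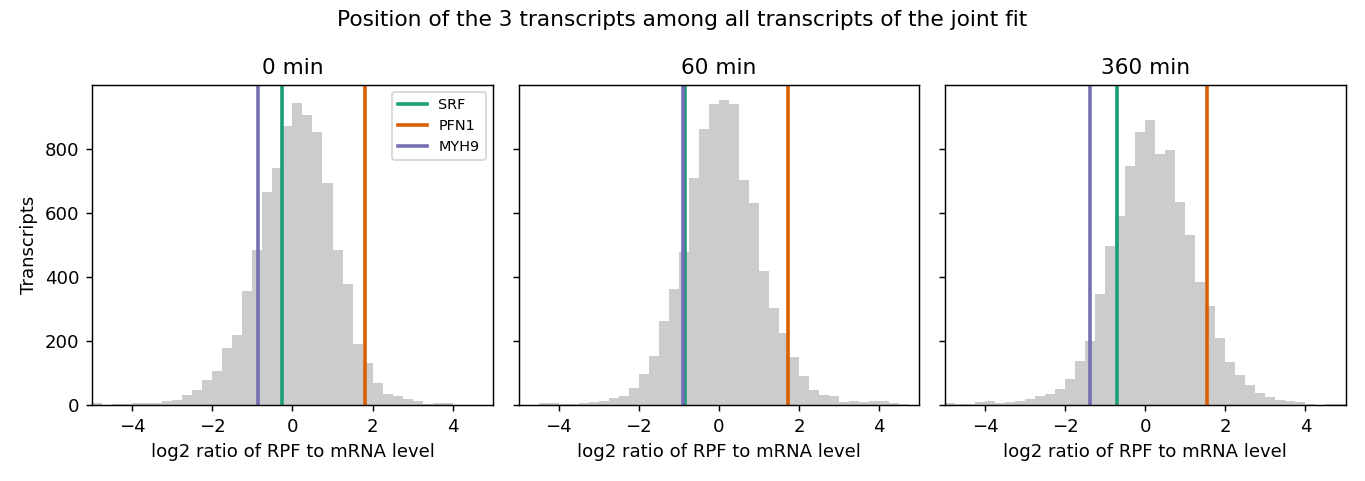
Number of transcripts (y axis) by log2 ratio of RPF to mRNA level (x axis, bins of 0.25) at each time, in grey, with vertical lines at the mean log2 ratio of SRF, PFN1 and MYH9. PFN1 lies in the upper part at all 3 times, from the 96.6th to the 89.8th percentile, and MYH9 in the lower part, from the 15.5th to the 6.02nd. The PFN1 line at 360 min averages replicates with ratios of 5.18 and 1.66.

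The same difference is shown without any scaling by the ratio of counts of 2 transcripts inside each library, in RPF and in mRNA libraries of the same time. It was added after the values had been seen and restates the levels above, so it is a description with no test. The ratio of PFN1 to SRF counts had a minimum of 9.07, a median of 17.4 and a maximum of 20.3 in the 6 RPF libraries, against 2.03, 3.55 and 4.10 in the 6 mRNA libraries. The assays did not overlap, and the mean log2 difference was 2.33, a fold of 5.04. The ratio of PFN1 to MYH9 counts ran from 2.36 to 6.15 in RPF and from 0.333 to 1.49 in mRNA. Its mean log2 difference was 2.77, a fold of 6.81. For both pairs the RPF ratios were above the mRNA ratios at each of the 3 times. How often pairs drawn from all transcripts separate in this way was not computed, so the separation is not read as particular to these pairs.

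SRF and MYH9 were not separated in this way. The ratio of MYH9 to SRF counts was between 2.92 and 4.13 in RPF libraries and between 2.75 and 8.28 in mRNA libraries, with overlap. The mean log2 difference was −0.43, with −0.17 left when mRNA 0 min replicate 1 was omitted and −0.70 when replicate 2, the library with the lowest MYH9 mRNA level, was. In mRNA at 360 min the 2 replicates gave 6.09 and 5.98, above the 60 min values of 3.81 and 3.61, while the 0 min replicates spanned 8.28 and 2.75.

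**Figure D4:**
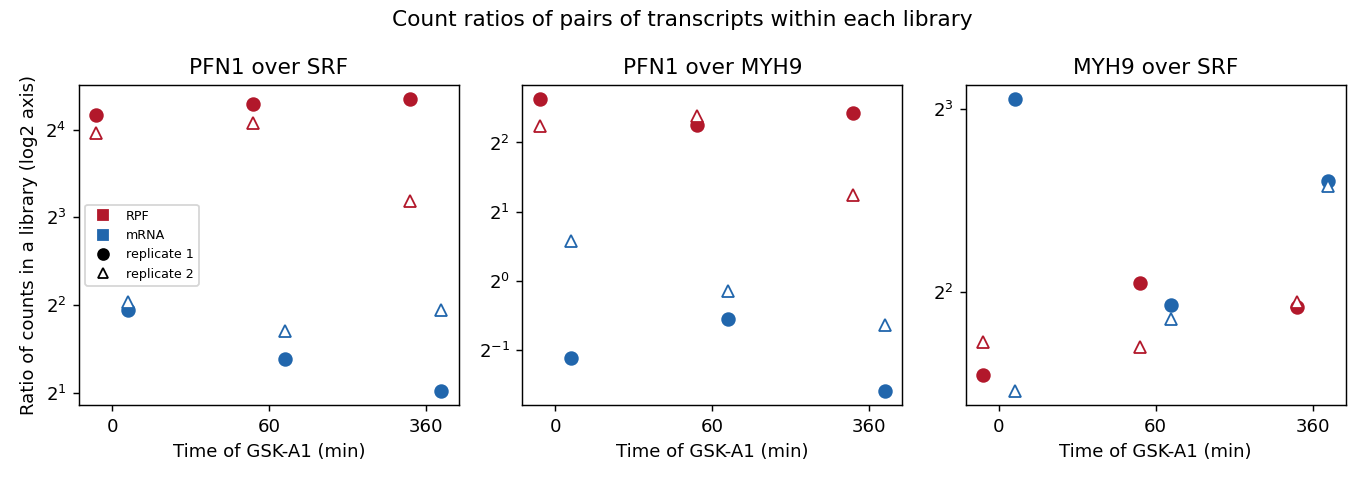
Ratio of the counts of 2 transcripts inside each library (log2 axis) against time in minutes, for PFN1 over SRF, PFN1 over MYH9 and MYH9 over SRF, with RPF in red, mRNA in blue and replicates as filled circles (1) and open triangles (2). In the PFN1 panels all RPF points lie above all mRNA points (9.07 or more against 4.10 or less over SRF), and in the MYH9 over SRF panel they overlap.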

How the data were processed

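The genes were chosen, and the lists and tests set, with earlier results of these data known. The values deposited by the authors are unnormalized counts by Ensembl transcript identifier in each of 12 libraries, whole and at least 1 (per the file headers and values); a transcript missing from a table was given 0. Cutadapt 2.8, Bowtie 1.2.3 and STAR 2.7.10a are named in the submitters' processing notes, without roles. The counting program, build, annotation, counted region, strand and treatment of multiply mapping reads are not given in the sources used here, so reads shared with related genes or pseudogenes are uncertain. Per the labels' protocols, footprints came from RNase I digestion and gel selection, and no mRNA preparation is described.

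Analyses used R 4.3.3 and edgeR 4.0.16: filterByExpr, TMM within each assay, and the quasi-likelihood test with time as factor over the 6 libraries of an assay, or the interaction of assay and time over all 12. P-values were adjusted over all transcripts tested (Benjamini-Hochberg, threshold 0.05). The SE is the log2 change over the square root of F. Log2 CPM used a prior count of 2. The fits were tested on simulated data with planted changes larger than any reported here. That test does not show whether changes of the size reported could be called. All members found are named, by rule. Alternatives were other scalings, DESeq2 1.42.0, other filters, the compared libraries alone, a replicate block, and each library left out. A list of other actin and SRF target genes, and markers of the cell line, were planned and not computed, because identifiers could not be matched to symbols. No 2 replicates were alike within sampling noise (chi-square per degree of freedom 8.61 to 16.7).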

Additional observations from a re-analysis of the deposited data

How the results depend on the processing

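Under 135 alternative fits of the 9 comparisons, 0 of the 3 transcripts passed in each, while over all transcripts these fits called between 0 and 113. In DESeq2, SRF had no adjusted p-value in mRNA at 360 min against 0 min or for the ratio at 360 min against 60 min. Replicate numbers are shared by the labels but not said to mark a common culture. Deviations of same-numbered libraries correlated at 0.223 to 0.293 between times in RPF and at −0.371 to 0.334 in mRNA. Between RPF and mRNA of the same time and number they correlated at −0.107 (0 min), 0.0084 (60 min) and −0.284 (360 min). Ratios by replicate number thus rest on a pairing that these correlations do not bear out. The replicate block called 0 of the 3 transcripts in all 9 comparisons. Of the 27 log2 changes, 11 kept their sign under every alternative run. Among them was the SRF footprint change at 60 min against 0 min (−0.58 to −0.24). So were the MYH9 mRNA changes at 360 min against 60 min (0.65 to 1.28) and against 0 min (0.27 to 1.43). All alternatives refit the same libraries, so a kept sign is no evidence of a change. The share of all transcripts that kept their sign was not computed. Scaling by library totals alone moved the median change over all transcripts (log2) at 360 min against 0 min to −0.12 in RPF and −0.19 in mRNA, and at 360 min against 60 min to −0.28 in mRNA. With it, the sign differed for SRF footprints at 360 min against 0 min (−0.14), PFN1 footprints (−0.03) and SRF (−0.0070) and PFN1 (−0.0041) mRNA at 360 min against 60 min, and the MYH9 ratio of RPF to mRNA at 60 min against 0 min (−0.09). The 5 recomputed values that moved beyond the replicate spread were all of MYH9 footprints at 360 min against 60 min (0.38 to 0.45, from 0.49). That spread is the square root of the summed variances of log2 CPM in the groups compared. The log2 ratios of RPF to mRNA stayed within the replicate spread under the other scalings and prior counts of 0.5 and 5. With each library left out, an alternative added after seeing the data, the mean log2 difference of the PFN1 to SRF count ratio was 2.14 to 2.53, that of PFN1 to MYH9 2.49 to 3.05 and that of MYH9 to SRF −0.70 to −0.17. The overlap of replicates with library totals alone was also added after seeing the data. SRF footprints rested on 27 to 49 counts per library, which limits their precision.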

Other observations

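The library profile of SRF was compared with those of 8631 other transcripts by Pearson's r of log2 CPM over the 12 libraries, after subtracting the mean of each assay. The libraries share depth and composition, so r is a description. The nearest profiles were those of ENST00000274137 (r = 0.850) and ENST00000606389 (r = 0.850), whose genes are not named here. MYH9 ranked 742nd (r = 0.464) and PFN1 2722nd (r = 0.186). PFN1 and MYH9 had an r of −0.142 with each other.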
